A study of Homo sapiens with 6 samples.

Results

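The forkhead (FOX), SOX and Krüppel-like (KLF) transcription factor genes were examined in MDA-MB-231 cells sorted for high or low CD104. The genes were chosen by symbol alone, as FOX followed by a letter and a number, SOX followed by a number, or KLF followed by a number. This took 50 of the 15024 genes in the table, of which 27 were FOX, 8 SOX and 15 KLF genes. MDA-MB-231 is a widely used cell line of triple-negative breast cancer. Both groups were sgNT cells, which carry a guide RNA without a target, and both had been in 10 µM forskolin for 14 days. Forskolin stimulates adenylyl cyclase, and the cyclic AMP formed switches on protein kinase A. The CD104high group held 3 libraries of CD44+ cells with high surface CD104, the integrin beta 4 subunit, and the CD104low group 3 libraries of CD44+ cells with low or no CD104. Cells without forskolin, and the MLL3-mutant cells that the design text mentions, were not analysed here. Whether the guide-carrying cells were a clone or a pool is not given in the sources used here. Separate cultures or sorts are not named for the libraries, which are called biological replicates, so p-values measure the spread between these libraries, which may be technical.

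Between 52088604 and 56958065 gene reads per library lay behind the values. ITGB4, which encodes CD104, averaged a normalised read count of 17659 ± 1766 in CD104high and 3079 ± 743 in CD104low libraries (SD, n = 3 each), a log2 difference of 2.54 (SE 0.15, limma adjusted p = 4.1e-05), so the libraries matched their labels. Of the genes the line is known for, CD44, VIM, AXL and CAV1 were all present, with CD44 averaging 23950 in CD104high and 26785 in CD104low libraries. Of 5 immune markers, CD14 was the member measured, at 534 to 573 in CD104high and 240 to 263 in CD104low libraries. Of 6 luminal breast markers, 3 were measured (ESR1, PGR and TFF1 were not analysed here), with a summed level of 5934 to 6507 in CD104high and 4939 to 5893 in CD104low libraries. The summed level of 5 fibroblast markers was 3863 to 5649 in CD104high and 2701 to 4328 in CD104low libraries, and that of 2 measured of 4 endothelial markers 60.7 to 130 in CD104high and 88.6 to 114 in CD104low libraries. Of the fibroblast markers tested 0 passed in limma, but 2 were higher with the replicate block, and ERBB3 was the luminal marker that passed. Without any single CD104high library, or without CD104low replicate 1 or 2, 0 luminal markers passed. CD14 also passed as higher (log2 fold change 1.14, SE 0.12, limma adjusted p = 0.000359). No gene measured had a value of 0 in any library, so a level above 0 tells nothing particular about these markers. The part of these markers in the results below was not tested. Fewer cells of a type and less RNA per cell cannot be told apart in bulk samples.

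As background, the 3 families are defined by their DNA-binding domains. Forkhead proteins bind DNA through a winged helix, SOX proteins bend it through an HMG box, and KLF proteins bind GC-rich boxes and CACCC elements through zinc fingers. In breast epithelium, SOX9 and FOXC1 mark progenitor and basal states, KLF4 and KLF5 act in epithelial differentiation and growth, and FOXQ1 and FOXC1 have been tied to the epithelial-mesenchymal transition. FOXO proteins are controlled largely by phosphorylation and export from the nucleus, which mRNA levels do not show, and FOXM1 drives genes of G2 and mitosis.

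FOXQ1 stood out, with CD104high cells holding 3.1 times the reads of CD104low cells. SOX9, SOX12 and SOX13 rose by 1.25-fold to 1.32-fold, KLF5 and FOXN3 by 1.16-fold and 1.15-fold, and KLF15, KLF16 and FOXM1 fell. Of the 50 genes, 45 had a normalised read count of 10 or more in 3 or more libraries and were tested with limma over all genes. At a limma adjusted p under 0.05, CD104high cells had more of 6 of these genes and less of 3, and 36 did not pass. These 9 of 45 stand against 23.4% of all 14343 genes tested, with 12.1% of all genes higher and 11.3% lower, so the 3 families together changed about as often as other genes. The median log2 fold change of the 45 was 0.05, with 26 above 0 and 19 below, and that of all genes 0.01. The groups did not overlap for 16 of the 45 genes, 12 above and 4 below. Of all 14343 genes tested 41.2% showed no overlap, 2855 above and 3048 below. Without the filter on low values the same 9 were called, against 22.1% of all genes in the table. The count of 9 rested on the libraries used, as did that of all genes. It was 4 without CD104high replicate 1 (12.7% of all genes called), 4 without CD104high replicate 2 (14.1%) and 5 without CD104low replicate 2 (16.1%). Same-numbered libraries deviated together, and with the replicate number as a block 14 of the 45 were called, 11 higher and 3 lower, against 32.8% of all genes.

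**Figure D1:**
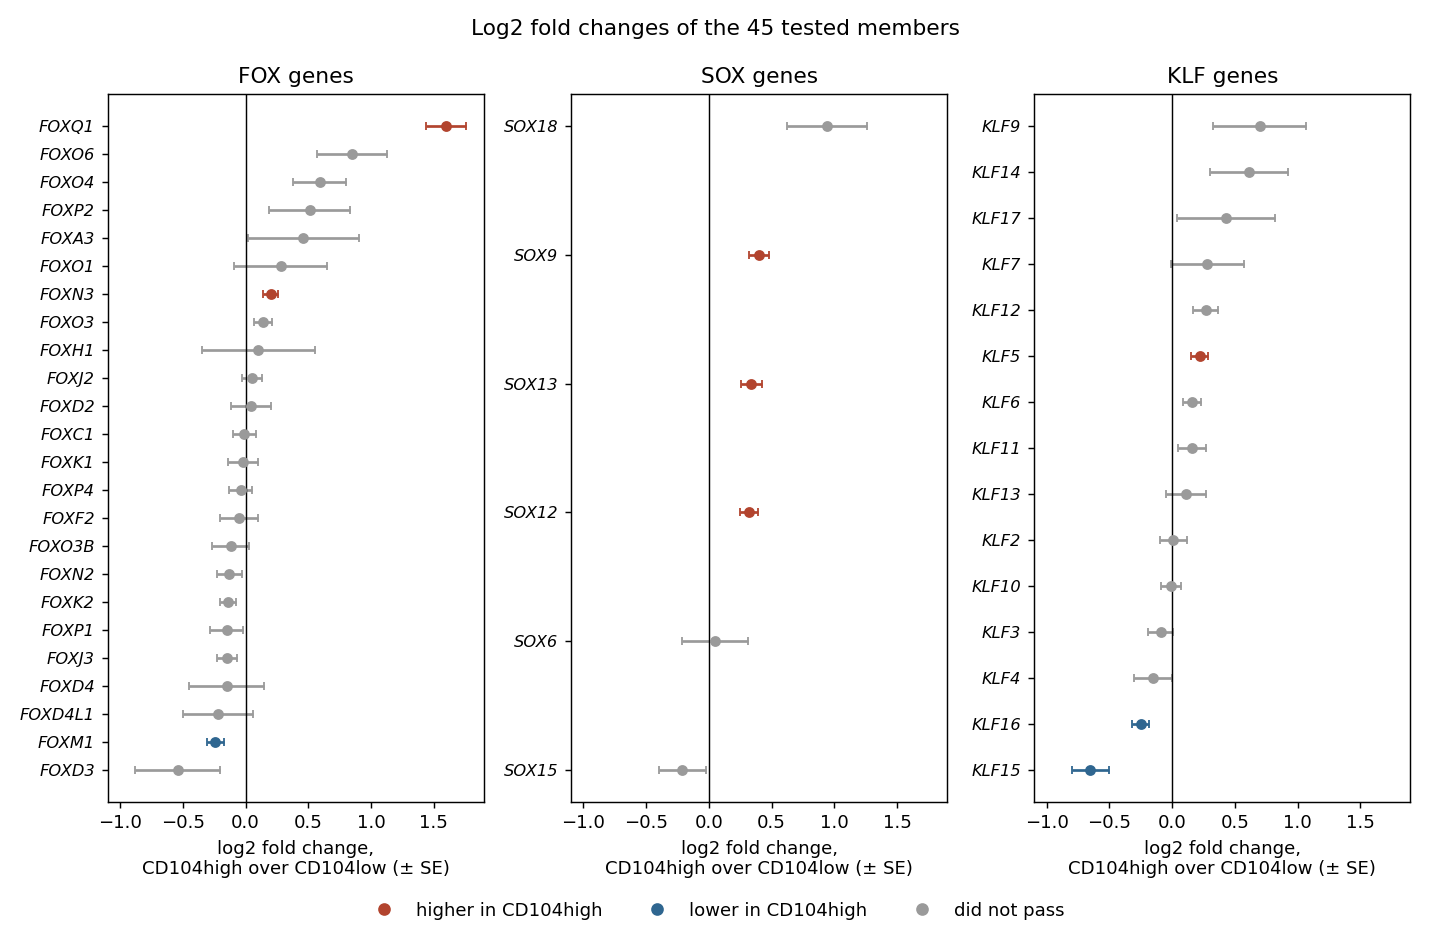
Log2 fold changes of the 45 tested genes (x axis, CD104high over CD104low, bars are the standard error from limma) in 3 panels for the FOX, SOX and KLF families, ordered by size. Red points passed as higher, blue points as lower and grey points did not pass. FOXQ1 at 1.60 lies apart from the rest. Wide bars belong mostly to genes with few reads, and also to KLF9, FOXO1 and KLF7, whose libraries were spread within each group.

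The genes that did not enter the test were FOXD4L3, FOXD4L4, FOXP3, SOX4 and SOX10, none of them above 11.9 normalised reads in any library. SOX4, an activator of progenitor genes in many tissues, had 11.9, 5.96 and 8.23 in CD104high libraries and 9.7, 11.8 and 2.06 in CD104low libraries. These levels cannot show a modest difference. FOXA3, a liver and gut factor, passed the filter through its CD104high libraries alone, at 10.3 to 13.9 against 6.18 to 9.85 in CD104low libraries, and its log2 fold change of 0.46 (SE 0.44, limma adjusted p = 0.488) carries that selection. In GENCODE release 29, 38 further protein-coding genes have symbols of the same form and were not analysed here.

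Levels can be compared between genes only per length, here as normalised reads per kilobase of merged exons in GENCODE release 29. On that scale FOXM1 (1684 in CD104high, 1979 in CD104low) and FOXP4 (1554 in CD104high, 1593 in CD104low) were the most abundant FOX genes, followed by FOXK2 (711 in CD104high, 783 in CD104low). SOX12 (1142 in CD104high, 917 in CD104low) and SOX9 (1154 in CD104high, 874 in CD104low) led the SOX family, and each took between 38.7% and 45.1% of its summed level per kilobase in every library. SOX13 followed at 291 in CD104high and 230 in CD104low, while SOX6, SOX10 and SOX4 were between 1.34 and 2.16 in both groups. KLF6 (1450 in CD104high, 1302 in CD104low) and KLF16 (900 in CD104high, 1072 in CD104low) led the KLF family. KLF10, KLF5 and KLF2 came next, at 723 to 818 in CD104high and 703 to 818 in CD104low. FOXQ1 ranked 11 of 27 in the FOX family over all libraries, at 335 in CD104high and 108 in CD104low, so the largest change was in a gene of middle level.

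**Figure D2:**
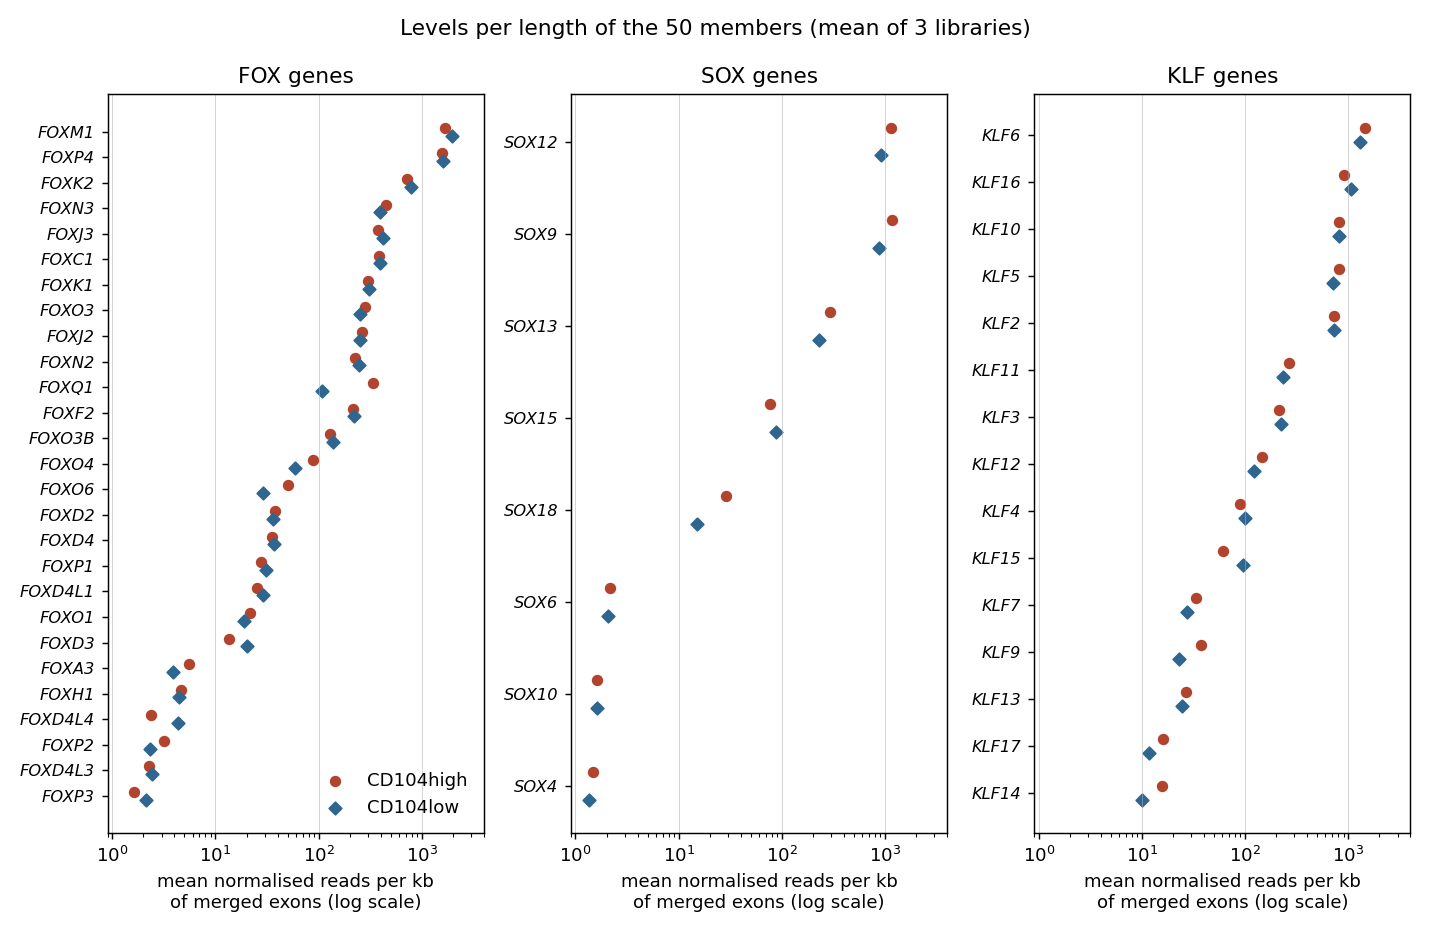
Mean normalised reads per kilobase of merged exons (x axis, log scale) of the 50 genes in 3 libraries each of CD104high (red circles) and CD104low (blue diamonds) cells, ordered within each family. A few genes of each family carry most of its reads, and FOXQ1 shows the widest gap between the groups among genes above 100 in both.

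FOXQ1 (ENSG00000164379.7) is a single-exon gene at chromosome 6, 1312440 to 1314748, plus strand of GRCh38. Its normalised read counts were 934, 798 and 591 in CD104high libraries, against 261, 249 and 240 in CD104low libraries. Every CD104high library lay above every CD104low library, and the spread was wider in CD104high (774 ± 173) than in CD104low (250 ± 10.5, SD, n = 3 each). Its difference of 1.60 on the log2 scale (SE 0.16, limma adjusted p = 0.000329) passed, and the call was kept in all 20 other analyses made at the threshold of 0.05, with values of 1.45 to 1.78. Its neighbours on chromosome 6 in the same family, FOXF2 and FOXC1, both regulators of mesenchymal development, showed no such difference. FOXF2 had 478, 600 and 487 in CD104high and 596, 595 and 441 in CD104low libraries (log2 fold change −0.05, SE 0.15, limma adjusted p = 0.83). FOXC1 had 1467, 1415 and 1671 in CD104high and 1605, 1477 and 1508 in CD104low libraries (log2 fold change −0.01, SE 0.09, limma adjusted p = 0.927), and both sets of values overlapped between the groups.

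The promoter of FOXQ1 and those of 3 further genes that changed are shown as the 250 bases before the RefSeq start site, 5′ to 3′ on the gene's strand, from RefSeq on GRCh38.p14. They were taken for the largest rise (FOXQ1), for a leading SOX gene (SOX12) and for the 2 KLF genes that fell (KLF15 and KLF16). Capitals mark the GC box GGGCGG that KLF and SP factors are known to bind, the TGACG core of the cyclic AMP response element, the forkhead letters TGTTTAC and the SOX letters ACAAT, on either strand. The regions are chr6:1311848-1312097 (plus strand) for FOXQ1, chr20:325302-325551 (plus strand) for SOX12, chr3:126357409-126357658 (minus strand) for KLF15 and chr19:1863580-1863829 (minus strand) for KLF16. For FOXQ1 and SOX12 the window ends before the gene's start in GENCODE release 29 (1312440 and 325595), and the bases between were not scanned. A stretch after the RefSeq start was in no GENCODE transcript of these genes, unlike for KLF15 and KLF16.
FOXQ1: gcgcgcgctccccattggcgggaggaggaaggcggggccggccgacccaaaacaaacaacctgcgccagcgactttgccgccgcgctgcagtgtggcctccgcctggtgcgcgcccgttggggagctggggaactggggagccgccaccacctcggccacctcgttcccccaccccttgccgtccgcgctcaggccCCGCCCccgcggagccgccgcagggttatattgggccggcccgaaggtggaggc
SOX12: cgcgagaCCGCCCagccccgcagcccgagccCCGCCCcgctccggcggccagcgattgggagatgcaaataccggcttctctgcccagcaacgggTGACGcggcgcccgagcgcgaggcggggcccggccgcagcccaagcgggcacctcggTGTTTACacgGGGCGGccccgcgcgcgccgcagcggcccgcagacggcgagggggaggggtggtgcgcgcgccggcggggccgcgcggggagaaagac
KLF15: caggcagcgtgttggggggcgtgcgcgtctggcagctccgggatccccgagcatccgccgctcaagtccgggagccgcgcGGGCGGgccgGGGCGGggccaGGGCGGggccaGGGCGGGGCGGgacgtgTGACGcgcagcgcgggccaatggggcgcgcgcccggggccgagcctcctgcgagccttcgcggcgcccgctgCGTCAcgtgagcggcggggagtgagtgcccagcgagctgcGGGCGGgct
KLF16: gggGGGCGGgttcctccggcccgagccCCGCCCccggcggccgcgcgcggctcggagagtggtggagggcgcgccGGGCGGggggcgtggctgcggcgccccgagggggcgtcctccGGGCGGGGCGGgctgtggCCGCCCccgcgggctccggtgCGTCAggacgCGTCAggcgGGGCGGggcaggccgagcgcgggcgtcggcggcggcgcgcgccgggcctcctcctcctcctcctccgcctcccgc

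The promoters of KLF15 and KLF16 held 6 and 7 GC boxes, some of them overlapping, and 2 TGACG cores each. At least 6 GC boxes stood in 6.25% of 64 promoters of the chosen families, in 3.64% of 16070 promoters of genes tested and in 2.22% of all 35116 promoters in the table. In the families, the promoter of FOXO6 and a start site of KLF11 also held 6 GC boxes each. Neither gene fell, at log2 fold changes of 0.85 and 0.16, and neither passed in the main analysis. SOX12 held 3 GC boxes, 1 TGACG core and 1 forkhead match that begins 98 bases before the start site, a motif present in 2.17% of the promoters of genes tested. FOXQ1 held 1 GC box. Among all 8 matched promoters of genes that changed, 7 held a GC box and 4 a TGACG core, with a median GC content of 73.8%, against 64.4% in promoters of genes tested. The promoters of SOX9 and FOXM1 were not matched. RefSeq promoters were matched for 41 of the 50 genes, some with several start sites. The GC box was found in 36 of the 64 (56.2%), against 62.1% of promoters of genes tested, and the TGACG core in 25.0% against 27.0%. The full cyclic AMP response element TGACGTCA, which contains the TGACG core on both strands, was in the promoters of FOXD3 and KLF11 (3.12%, against 2.37% of promoters of genes tested), and neither gene passed the test. The SOX letters were in 31.2% of the promoters of the families, 16.0% of those of genes tested and 24.6% of all promoters. Each start site counted as a promoter, so single genes weigh on that share. In the SOX family 5 of 8 promoters held the letters, all of them start sites of SOX6, and FOXP1 gave several more. The median GC content of the SOX family promoters was 44.8%. These are matches of letters in a short window and show no binding.

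The SOX family held 3 higher genes and 0 lower genes among 6 tested, where 12.1% of all genes were higher and 11.3% lower, with a median log2 fold change of 0.33 over these few genes. SOX9 (ENSG00000125398.8, chromosome 17, 72121020 to 72126420), a factor of cartilage and of epithelial progenitors, had 4263, 4780 and 4581 normalised reads in CD104high libraries, against 3133, 3454 and 3734 in CD104low libraries. The groups did not overlap (log2 fold change 0.40, SE 0.08, limma adjusted p = 0.0074). Its call was kept in all 20 other analyses at the same threshold. SOX12 (ENSG00000177732.8, chromosome 20, 325595 to 330224), a single-exon relative of SOX4 and SOX11, had 5037, 5640 and 5191 in CD104high libraries and 4300, 4352 and 4087 in CD104low libraries. All CD104high values were above all CD104low values (log2 fold change 0.32, SE 0.07, limma adjusted p = 0.0105), and without CD104high replicate 2 the limma adjusted p was 0.0511. SOX13 (ENSG00000143842.15, chromosome 1, 204073115 to 204127743), a SOXD factor without a transactivation domain of its own, had 2051, 2148 and 2284 in CD104high libraries and 1609, 1810 and 1691 in CD104low libraries. It also parted the groups (log2 fold change 0.34, SE 0.08, limma adjusted p = 0.0143). Without CD104high replicate 3 its limma adjusted p was 0.0542, and without both libraries numbered 3 it was 0.066.

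SOX18, a factor of blood and lymphatic vessels, was low but parted the groups, with 51.4, 47.6 and 61.7 in CD104high libraries and 34.9, 31.5 and 18.5 in CD104low libraries. It did not pass (log2 fold change 0.94, SE 0.32, limma adjusted p = 0.0576), but did with the replicate block (limma adjusted p = 0.046). Once the length and GC trend was also removed the blocked limma adjusted p was 0.0722, and without both libraries numbered 3 the log2 fold change was 0.56 (limma adjusted p = 0.283). SOX6, the other SOXD gene measured, and SOX15, a SOXG gene, had log2 fold changes of 0.05 (SE 0.26) and −0.21 (SE 0.19), and their groups overlapped. Of 7 tested antisense or neighbouring transcripts of the 3 families, 1 was higher and 1 lower, or 28.6%, against 23.4% of all genes called. The antisense transcript SOX9-AS1, measured apart from SOX9, averaged 64.6 ± 9.56 in CD104high and 30.4 ± 10.3 in CD104low libraries (SD, n = 3 each), with a log2 fold change of 1.10 (SE 0.31, limma adjusted p = 0.0283). Its call ended without any single CD104high library, without CD104low replicate 2 and without both libraries numbered 3. No exon of SOX9 in GENCODE release 29 overlaps another annotated gene. The strand setting of the counting is not given in the sources used here.

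**Figure D3:**
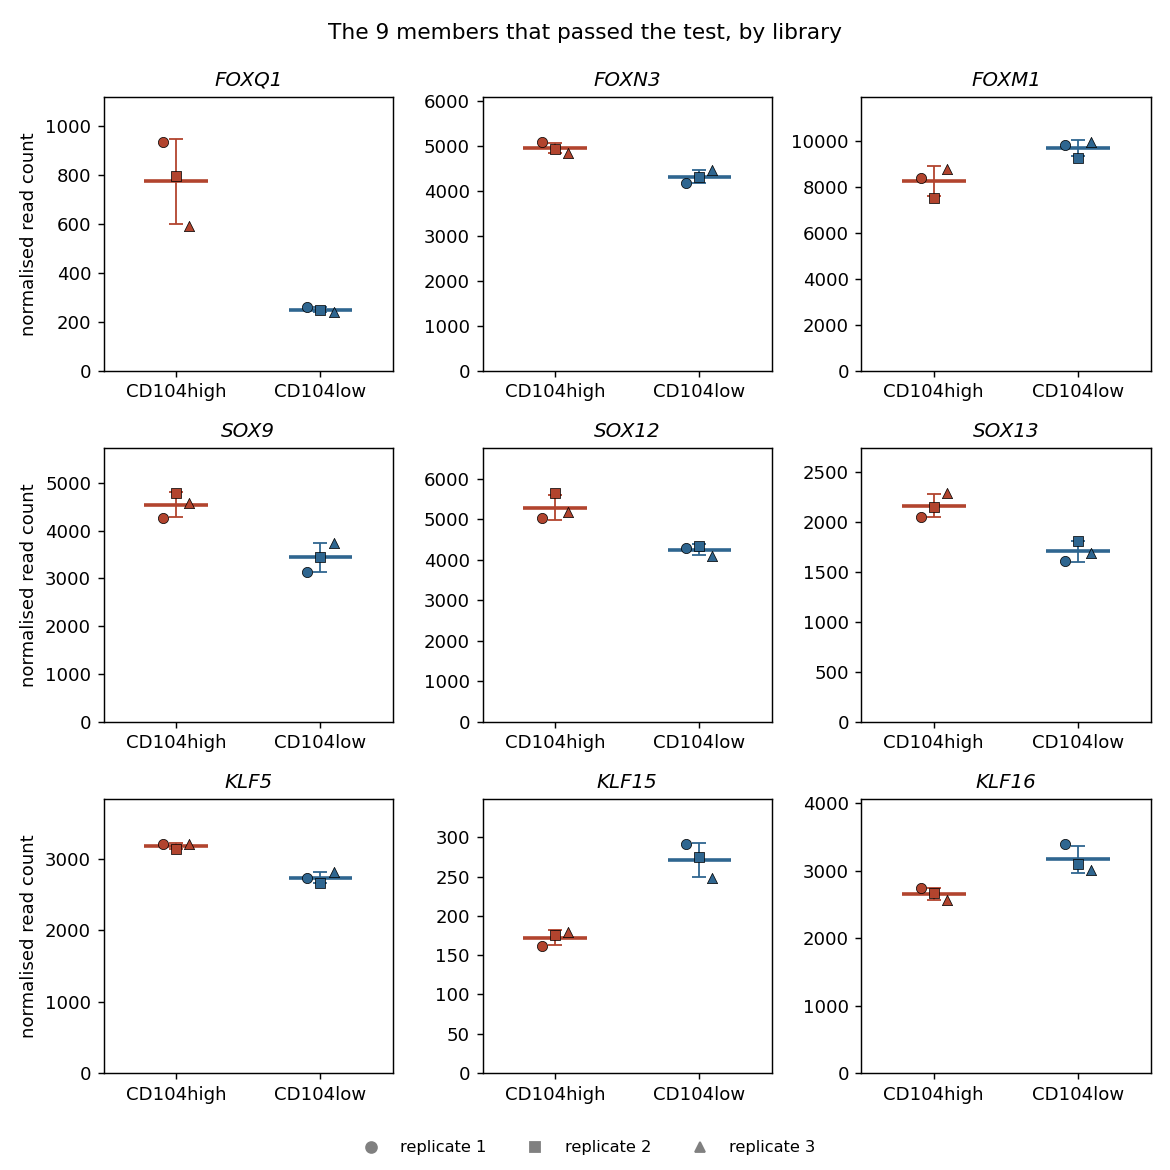
Normalised read counts (y axis, from 0) of the 9 genes that passed the test, in CD104high (red, left) and CD104low (blue, right) libraries. Symbols give the replicate number, wide lines the mean and error bars the SD of 3 libraries. In all 9 panels the groups do not overlap, and FOXQ1 has the widest gap relative to its level.

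Among forkhead genes, 2 of 24 tested were higher and 1 was lower, which is 12.5% called against 23.4% of all genes, with a median log2 fold change of −0.02. FOXM1 (ENSG00000111206.12, chromosome 12, 2857681 to 2877155), the activator of mitotic genes, had 8409, 7530 and 8806 normalised reads in CD104high libraries, against 9840, 9286 and 9952 in CD104low libraries. All CD104high values were below all CD104low values, and the gene fell by 0.24 on the log2 scale (SE 0.07, limma adjusted p = 0.0446). The call ended without any single library except CD104high replicate 3 (limma adjusted p up to 0.164, without CD104high replicate 2), with total reads for scaling (0.0591) and in limma without the mean-variance trend (0.112). The FOXM1 call also ended without both libraries numbered 3 (limma adjusted p = 0.0686). Of its merged exon length, 15.9% is shared with ITFG2 on the other strand. Of 18 textbook FOXM1 targets, 13 were lower, 0 higher and 5 did not pass, with a median log2 fold change of −0.29, and 16 had values below 0. All genes tested were lower in 11.3% of cases. The mitotic kinase gene PLK1 fell by 0.46 (SE 0.06), the anaphase activator gene CDC20 by 0.61 (SE 0.09), the mitotic kinesin gene KIF20A by 0.36 (SE 0.06) and the cyclin gene CCNB1 by 0.42 (SE 0.08) on the log2 scale, with limma adjusted p values of 0.00126, 0.00165, 0.00395 and 0.00401. TOP2A and CENPF, also on the list, had log2 fold changes of 0.23 (SE 0.08) and 0.06 (SE 0.10). Most of these are also general cell cycle genes, and the fall of mitotic genes was known from earlier results of these data, so it is no independent evidence on FOXM1.

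FOXN3 (ENSG00000053254.15, chromosome 14, 89124871 to 89619149), a repressor tied to cell cycle checkpoints, had 5090, 4946 and 4853 in CD104high libraries and 4182, 4311 and 4484 in CD104low libraries. The groups did not overlap (log2 fold change 0.20, SE 0.06, limma adjusted p = 0.0484), and the call lay at the edge of the threshold. It ended on leaving out any single library (limma adjusted p = 0.057 to 0.139), in edgeR (0.0525 and 0.0555 under its scalings), with TMM scaling in limma (0.0526) and without the mean-variance trend (0.093). Without both libraries numbered 3 it ended as well (limma adjusted p = 0.0926). Its relatives FOXN2, FOXJ2 and FOXJ3 had log2 fold changes of −0.13 (SE 0.10), 0.05 (SE 0.08) and −0.15 (SE 0.08) and overlapped between the groups.

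FOXO genes, the forkhead factors held in check by AKT, lay above 0 for 4 of 5 tested, but 0 passed in limma, with 2 at an unadjusted p under 0.05, 0 passed in edgeR with TMM, and 2 passed in DESeq2. FOXO6 had 144, 123 and 97.8 normalised reads in CD104high libraries and 89.3, 45.3 and 72.1 in CD104low libraries, and the groups did not overlap (log2 fold change 0.85, SE 0.28, limma adjusted p = 0.0529). FOXO4 had 359, 315 and 237 in CD104high libraries and 258, 181 and 167 in CD104low libraries, where CD104high replicate 3 lay below CD104low replicate 1 (log2 fold change 0.59, SE 0.21, limma adjusted p = 0.0707). Within each replicate number both genes were higher in CD104high, and with the replicate block both passed (limma adjusted p = 0.0192 for FOXO6 and 0.00877 for FOXO4). They also passed in DESeq2 (adjusted p = 0.0324 for FOXO6 and 0.0341 for FOXO4, in a test that called 27.6% of all genes), and without both libraries numbered 3 (limma adjusted p = 0.0146 for FOXO6 and 0.0238 for FOXO4). FOXO3, the most abundant FOXO gene per length, had 2239, 2143 and 2047 in CD104high and 1913, 1940 and 1962 in CD104low libraries, without overlap (log2 fold change 0.14, SE 0.07, limma adjusted p = 0.182). FOXO1 had 147, 158 and 96.7 in CD104high and 127, 172 and 56.6 in CD104low libraries and overlapped (log2 fold change 0.28, SE 0.37). FOXO3B, a near-identical copy of FOXO3 whose reads may have been split with it, had −0.12 (SE 0.15).

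Of 21 textbook FOXO targets, 7 were higher, 0 lower and 14 did not pass, with a median log2 fold change of 0.12, where 12.1% of all genes were higher. With 1 library left out that median ran from 0.09 without CD104high replicate 1 to 0.23 without CD104high replicate 3. The ubiquitin ligase gene FBXO32 rose by 1.22 (SE 0.10, limma adjusted p = 0.00013), at 1225 ± 80.9 in CD104high and 525 ± 7.69 in CD104low libraries (SD, n = 3 each). TXNIP, an inhibitor of thioredoxin, rose by 0.86 (SE 0.11), KLHL24, an adaptor of a ubiquitin ligase, by 0.67 (SE 0.11), and CCNG2, an atypical cyclin, by 0.70 (SE 0.12) on the log2 scale, with limma adjusted p values of 0.00103, 0.00252 and 0.00276. CAT, PINK1 and BCL2L11 also rose. Among the targets that did not pass, CDKN1B, IRS2, RICTOR and SESN1 had log2 fold changes of 0.00, 0.03, −0.02 and −0.04. GADD45A and SOD2 had −0.22 (SE 0.11) and −0.12 (SE 0.08), both lower in CD104high within each replicate number. TRIB2 and PDK4 had 0.37 (SE 0.12) and 0.97 (SE 0.35). Of all 21 targets, 15 lay above 0 and 6 below. The list was chosen with earlier results of these data known, so it is no independent evidence on FOXO proteins. Among 23 regulators of FOXO proteins, 0 were higher and 3 lower (median −0.07), against 23.4% of all genes called and 11.3% lower, so the regulators were called no more often than other genes. With the replicate block 1 was higher and 3 were lower. USP7, a deubiquitinase, fell by 0.39 (SE 0.08), SKP2, a ubiquitin ligase subunit, by 0.32 (SE 0.07) and YWHAE, a 14-3-3 protein, by 0.28 (SE 0.08), with limma adjusted p values of 0.00573, 0.00952 and 0.0256.

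The other abundant forkhead genes did not pass. FOXP4, a repressor that pairs with other FOXP proteins, had 10403, 9951 and 8419 in CD104high and 10457, 9657 and 9372 in CD104low libraries, with a log2 fold change of −0.04 (SE 0.09, limma adjusted p = 0.78). It took the other sign without CD104high replicate 3 (0.05), and passed at −0.17 in the blocked fit with the length and GC trend removed (limma adjusted p = 0.049). The antisense transcript FOXP4-AS1 fell by 0.80 on the log2 scale (SE 0.19, limma adjusted p = 0.0154), at 90.8 ± 10.2 in CD104high and 158 ± 20.2 in CD104low libraries (SD, n = 3 each), and its call ended without both libraries numbered 3. FOXK2, a repressor with a phosphopeptide-binding domain, had 7185, 6837 and 7282 in CD104high and 8028, 7931 and 7513 in CD104low libraries. These groups did not overlap, and FOXK2 passed only where a trend with transcript length and GC content was removed (log2 fold change −0.14, SE 0.06, limma adjusted p = 0.138, and −0.23 with 0.0258 after that correction). FOXK1, its close relative, had −0.02 (SE 0.12) and overlapped. FOXD4, FOXD4L1 and the untested FOXD4L3 and FOXD4L4 are near-identical copies whose reads may have been split, and their groups overlapped. FOXD3, a neural crest factor, had the lowest value of the family at −0.54 (SE 0.34, limma adjusted p = 0.281), with 35.6, 24.8 and 23.7 in CD104high and 40.7, 56.1 and 28.8 in CD104low libraries.

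Of the 15 KLF genes tested, 1 was higher and 2 were lower, a share close to the 23.4% of all genes called, and the median log2 fold change was 0.16. KLF15 (ENSG00000163884.4, chromosome 3, 126342635 to 126357442), a metabolic regulator known as a target of the glucocorticoid receptor, had 161, 176 and 179 normalised reads in CD104high libraries, against 291, 275 and 248 in CD104low libraries. Each CD104high value was below each CD104low value, and KLF15 fell by 0.65 on the log2 scale (SE 0.15, limma adjusted p = 0.0115). Without CD104high replicate 1 its limma adjusted p was 0.0515. KLF16 (ENSG00000129911.9, chromosome 19, 1852399 to 1863568), a repressor that recruits SIN3A, had 2746, 2664 and 2567 in CD104high libraries and 3393, 3101 and 3013 in CD104low libraries. It fell by 0.25 on the log2 scale without overlap (SE 0.07, limma adjusted p = 0.0344), but its call ended without any single library except CD104low replicate 3 (limma adjusted p = 0.0694 to 0.108), without both libraries numbered 3 (0.0832) and without the mean-variance trend (0.076). With the length and GC trend removed the value was −0.41 (limma adjusted p = 0.00135). KLF5 (ENSG00000102554.14, chromosome 13, 73054976 to 73077542), an activator of epithelial growth, had 3206, 3140 and 3206 in CD104high libraries and 2728, 2663 and 2820 in CD104low libraries. The groups parted with little spread inside each (log2 fold change 0.22, SE 0.07, limma adjusted p = 0.0379), though the call ended on leaving out any single library (limma adjusted p = 0.052 to 0.12). The KLF5 call also ended without both libraries numbered 3 (limma adjusted p = 0.114) and without the mean-variance trend (0.0665).

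KLF6, the most abundant KLF gene and a tumour suppressor in several epithelia, had 8578, 8984 and 9138 in CD104high libraries and 7544, 7862 and 8566 in CD104low libraries. The groups lay close but did not overlap, and the gene did not pass (log2 fold change 0.16, SE 0.07, limma adjusted p = 0.128). It passed with the length and GC trend removed (limma adjusted p = 0.0475, and 0.0221 with the block). KLF12, a repressor that recruits CtBP, had 1578, 1557 and 1619 in CD104high libraries and 1132, 1477 and 1361 in CD104low libraries (log2 fold change 0.27, SE 0.10, limma adjusted p = 0.0898), and passed with the replicate block (limma adjusted p = 0.0453). It also passed with the length and GC trend removed (limma adjusted p = 0.0351), while without CD104low replicate 1 the value was 0.16 (limma adjusted p = 0.205). KLF10, a target of TGF-beta signalling, had 3460, 3322 and 2988 in CD104high and 3326, 3318 and 3173 in CD104low libraries, with a log2 fold change of −0.01 (SE 0.08) that was 0.05 without CD104high replicate 3. KLF2 and KLF4, which with KLF6 and KLF10 are known as genes induced early by stimuli, had 0.01 (SE 0.11) and −0.15 (SE 0.15) and overlapped. Of 15 tested genes of the immediate-early class, 6 were lower and 0 higher, with a median log2 fold change of −0.03, and with the replicate block 6 were lower and 2 higher. Of all genes, 11.3% were lower and 12.1% higher. MYC fell by 0.60 (SE 0.07) and JUN by 0.49 (SE 0.08) on the log2 scale, with limma adjusted p values of 0.00046 and 0.0027. DUSP1, a phosphatase acting on MAP kinases, fell by 0.91 (SE 0.16) and FOSL1 by 0.32 (SE 0.06), with limma adjusted p values of 0.00393 and 0.00648. Of the 15 genes, 7 lay above 0 and 8 below. FOS had 0.57 (SE 0.23), and ZFP36, EGR1, JUNB and NR4A2 had 0.21, 0.21, 0.22 and 0.22. None of these passed, though each was higher in CD104high within each replicate number.

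KLF9 was the KLF gene with the highest log2 fold change, yet its libraries were spread by number. KLF9, another glucocorticoid-responsive factor, had 181, 278 and 117 in CD104high libraries and 134, 156 and 65.9 in CD104low libraries. The groups overlapped, but each numbered pair was higher in CD104high (log2 fold change 0.70, SE 0.37, limma adjusted p = 0.197), and the replicate block gave a limma adjusted p of 0.0109. Without CD104low replicate 3 the value was 0.32, and without CD104high replicate 2 it was 0.39 (limma adjusted p = 0.482 and 0.52). KLF7, a neural and adipose factor, had 330, 386 and 204 in CD104high and 259, 345 and 163 in CD104low libraries, again higher within each pair, with a limma adjusted p of 0.533. On the log2 scale the libraries numbered 3 differed from the mean of replicates 1 and 2 by −0.93 in CD104high and −1.12 in CD104low for KLF9. These differences were −0.81 in CD104high and −0.87 in CD104low for KLF7, and −0.65 in CD104high and −1.37 in CD104low for FOXO1. A library numbered 3 was the lowest of its group in both groups for 15 of the 45 tested genes (33.3%), against 16.9% of all genes, and a gap of 0.5 or more in both groups held for 3 of 45, against 2.54%. What sets the libraries numbered 3 apart was not tested.

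**Figure D4:**
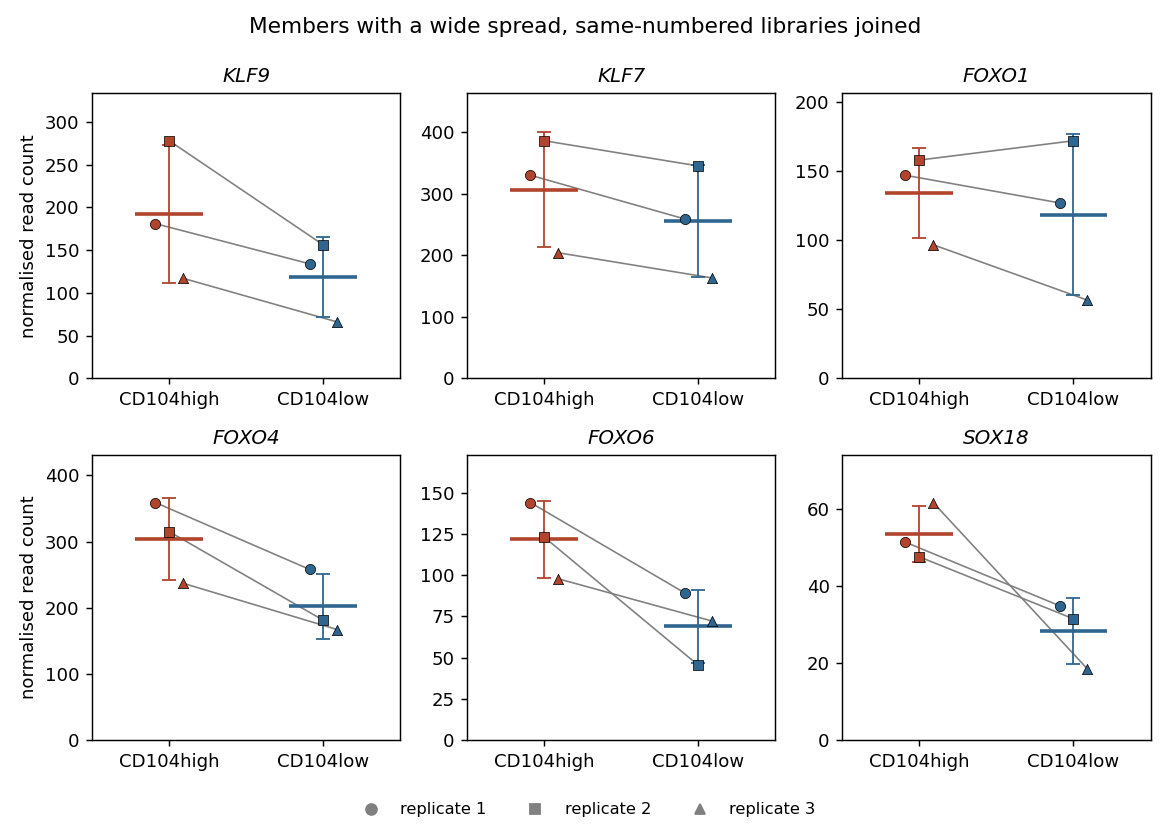
Normalised read counts (y axis, from 0) of 6 genes with few reads or a wide spread, in CD104high (red, left) and CD104low (blue, right) libraries, with same-numbered libraries joined by grey lines. Wide lines are means and error bars the SD of 3 libraries. For KLF9, KLF7 and FOXO1 both libraries numbered 3 (triangles) are the lowest of their group, while for KLF9, KLF7, FOXO4, FOXO6 and SOX18 all 3 pairs are higher in CD104high.

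Relatives and partners of the 3 families were called about as often as all genes or on small numbers. Of 6 tested SP genes, zinc finger factors close to the KLF proteins, 0 passed in limma or in edgeR with TMM, 2 had an unadjusted p under 0.05 in limma, and DESeq2 called 1 of them lower. Of 13 other HMG-box genes, 2 were higher and 1 lower, or 23.1%, against 23.4% of all genes. SSRP1, a subunit of the histone chaperone FACT, fell by 0.54 (SE 0.07, limma adjusted p = 0.000701), and HBP1, a repressor of cell cycle genes, rose by 0.59 (SE 0.09, limma adjusted p = 0.00151), as did TOX by 0.48 (SE 0.15, limma adjusted p = 0.045). Only 1 HMG-box gene was higher without CD104high replicate 1 or 2, or without CD104low replicate 1 or 2. Of 16 cofactors, 1 was higher and 3 were lower, or 25.0%, again near the share of all genes. The corepressor CTBP2 fell by 0.30 (SE 0.06), the deacetylases HDAC2 by 0.33 (SE 0.08) and HDAC1 by 0.25 (SE 0.08), and the acetyltransferase KAT2B rose by 0.44 (SE 0.11), with limma adjusted p values of 0.00843, 0.0136, 0.0412 and 0.016. These 4 calls were 2 without CD104high replicate 1, CD104high replicate 2 or CD104low replicate 2. Of 10 listed cartilage targets of SOX9, 5 were tested, of which 2 were higher and 0 lower. Among all genes, 12.1% were higher and 11.3% lower. COL9A3, COL11A2 and COL11A1, with means of 16.8, 43.2 and 16.1 normalised reads, did not pass, at log2 fold changes of 1.24, 0.80 and −0.42. MATN3, a matrilin of the cartilage matrix, rose by 0.95 (SE 0.10, limma adjusted p = 0.000341), and COL9A2, a chain of type IX collagen, by 0.81 (SE 0.13, limma adjusted p = 0.0029).

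In the authors' deposited table of the same comparison, 8 of the 50 genes were higher and 3 lower at an adjusted p under 0.05, 33 did not pass and 6 had an empty adjusted p. Of all 13831 genes with an adjusted p in the authors' deposited table, 29.6% were called, so the members' share was no larger. The authors' deposited table counted FOXO4, FOXO6 and SOX18 as higher, at adjusted p values of 0.0145, 0.00917 and 0.0261, and did not count FOXN3.

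**Figure D5:**
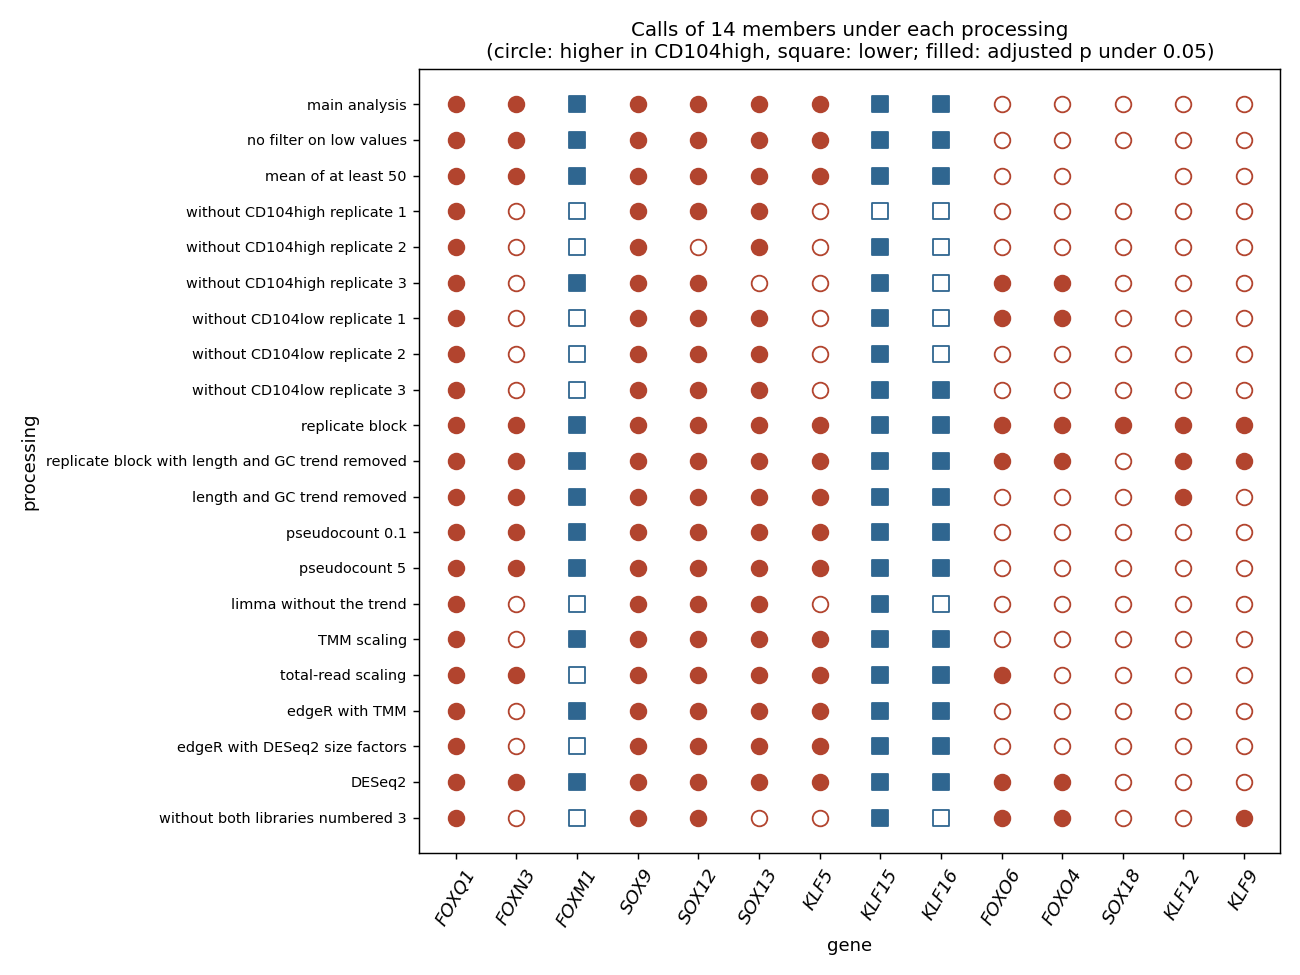
Calls of 14 genes (x axis) in the main analysis and under 20 other ways of processing the same libraries (y axis). Circles mark genes higher and squares genes lower in CD104high, filled where the adjusted p was under 0.05, and no symbol stands where the gene was filtered out. FOXQ1 and SOX9 are filled in every line, FOXN3, KLF5, KLF16 and FOXM1 lose their fill in many lines that leave out a library, and no gene changes shape.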

How the data were processed

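RNA levels were measured in 3 CD104high and 3 CD104low libraries. The submitters' processing notes name GRCh38.p13 (hg38) and the tools DESeq2 1.30.1, featureCounts 1.5.0, STAR 2.4.0 and FastQC, with no roles. How strand was set and genes were filtered is not given in the sources used here. As signal, the authors deposited read numbers per gene that had been scaled with a size factor for each library. The authors' deposited comparison adds a log2 fold change with its standard error, a test score, a p-value and an adjusted p-value for each gene. No value is 0 in the table, so genes without reads in a library were not analysed here. The values of 5 libraries were whole multiples of the size of 1 read (tolerance 0.1) for at least 99.99% of genes. In CD104high replicate 2 the size was 0.9926, which is too close to 1 to be sure of, so count tests stand only as alternatives. On these reads edgeR with TMM called 3349 genes.

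The test was limma's moderated one with its trend option (version 3.58.1 in R 4.3.3), applied to log2(value + 1), which understates the change of low genes, with Benjamini-Hochberg adjustment over 14343 genes and a threshold of 0.05. The filter removed 681 genes. The method was also run on simulated counts, and the outcome is not reported here. Alternatives included edgeR 4.0.16, DESeq2 1.42.0, other scalings, filters and pseudocounts, libraries left out, a replicate block, and removal of a trend with transcript length and GC content. Deviations of same-numbered libraries from their group means correlated across genes at 0.17, 0.32 and 0.48, so the numbers may pair the libraries. This was read from the data and not from the labels, and 3 libraries a group cannot establish it. The main test used no pairing.

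Members and gene lists were chosen with earlier results of these data known, so counts of called genes in the lists are no independent evidence. Genes given in full were those that passed, those with an adjusted p from 0.05 to under 0.1, and the 3 with the highest mean in each family. Of each gene list, up to 4 called genes with the smallest p were named. FOXF2, FOXC1, KLF7, KLF9, FOXO1, FOXO3, FOXD3, SOX4, KLF2, KLF4 and other genes outside that rule were named to describe a role group or after their values were seen.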

Additional observations from a re-analysis of the deposited data

How the results depend on the processing

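FOXQ1 and SOX9 kept direction and call in every alternative at the threshold of 0.05, and no gene that passed changed direction. FOXP4 and KLF10, both near 0, changed sign. FOXP4 was −0.04, −0.10 to 0.05 with 1 library left out and 0.02 without both libraries numbered 3. KLF10 was −0.01, −0.05 to 0.05 with 1 library left out, 0.04 with the length and GC trend removed (also 0.04 with the block), 0.01 with total reads for scaling and 0.03 without both libraries numbered 3. Of all genes, 1816 to 3313 were called with 1 library left out, against 3355 with all 6. Over the 45 tested members that range was 4 to 7, for FOX genes 1 to 4, for SOX genes 2 to 3, for KLF genes 0 to 2 and for the gene lists together 32 to 48. Limma called 0 KLF genes without CD104high replicate 1, where 6 had an unadjusted p under 0.05. With the replicate block 14 members were called (5 FOX and 5 KLF), gaining FOXO4, FOXO6, SOX18, KLF12 and KLF9 and losing no call. After removing the trend in transcript length and GC content from the blocked fit, 5184 genes and 16 members were called (7 FOX and 6 KLF), with FOXK2, FOXP4 and KLF6 gained. With that trend removed alone 5 KLF genes were called. Limma without the mean-variance trend called 2173 genes and 5 members, 1 of them FOX and 1 KLF. DESeq2 called 5 FOX genes. A threshold of 0.01 left 1436 genes, 2 members (FOXQ1 as 1 FOX gene, SOX9 as 1 SOX gene and 0 KLF genes) and 25 genes of the lists. Among the gene lists, the block called 4 HMG-box genes higher and 2 lower, against 2 and 1. Removing the length and GC trend called 1 FOXO regulator higher and 4 lower, against 0 and 3. Cofactors were 0 higher and 1 lower in limma without the mean-variance trend, and 1 higher and 8 lower in the blocked fit with the length and GC trend removed, against 1 and 3. The cause of these shifts was not tested, except that a stricter threshold leaves fewer calls by construction. With total reads for scaling, 1833 genes were higher and 1456 lower, against 1730 and 1625 in the main analysis. The 8 tested members with a mean under 50 normalised reads had standard errors of 0.26 to 0.45, and even the 0.94 of SOX18 did not pass.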
